A study of Homo sapiens with 6 samples.

Results

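Liver progenitor and oncofetal markers are genes that are active in the fetal liver or in the bile duct lineage, are low in mature hepatocytes and are used to recognise immature or stem-like liver tumors. The 10 genes described here are AFP, GPC3, KRT19, KRT7, PROM1, SOX9, CD24, SALL4, DLK1 and THY1. They were taken by gene name from a table of 58825 genes, and each name matched 1 row. The table holds 6 RNA sequencing libraries of MHCC97H, a human cell line derived from hepatocellular carcinoma (HCC). Of these, 3 carried the control hairpin shControl (genotype label WT) and 3 the hairpin shPTBP1 (genotype label PTBP1 Knockdown), which targets the splicing regulator PTBP1. The labels do not say which hairpin sequence each shPTBP1 library carries, nor whether the libraries of a group are separate cultures, so p-values measure the spread between these libraries, which may be technical. All 6 libraries come from the same line, with polyadenylated RNA from cultured cells, and the comparison asks how mRNA levels differ when PTBP1 is targeted.

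The markers fall into several roles. AFP (alpha-fetoprotein) is the main serum protein of the fetal liver and a clinical marker of HCC, GPC3 (glypican-3) is a heparan sulfate proteoglycan of the fetal liver and of HCC, SALL4 is a zinc finger transcription factor of embryonic stem cells and fetal liver, and DLK1 is an imprinted membrane protein of hepatoblasts. KRT7 and KRT19 are keratins of bile duct cells, and SOX9 is a transcription factor of the ductal and progenitor compartment. PROM1 (CD133), CD24 and THY1 (CD90) are surface proteins used to sort stem-like tumor cells.

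In these cells 2 of the 10 markers, KRT7 and CD24, were abundant, and the other 8 had at most 0.230 FPKM in any library. FPKM, the value deposited by the authors, is a fragment count scaled by transcript length and by the size of the library, so it allows levels of different genes to be compared. Mean KRT7 was higher than 98.4% of 19727 protein-coding genes in shControl, and mean CD24 higher than 97.8%. AFP had a count of 0 in all 6 libraries.

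Bases before the transcription start of AFP, a silent marker, and of CD24, an abundant one, are shown because they stand at opposite ends of the set. The sequences are from RefSeq (GRCh38.p14), whose promoter table held 3 of the 10 genes, PROM1 being the third. Both are written 5′ to 3′ on the gene's own strand. Capitals mark CG dinucleotides. For AFP the stretch is chr4:73435971-73436162 on the plus strand, which ends before the first exon of another annotated transcript. For CD24 it is chr6:106975628-106975877 on the minus strand, before the start farthest upstream.
AFP: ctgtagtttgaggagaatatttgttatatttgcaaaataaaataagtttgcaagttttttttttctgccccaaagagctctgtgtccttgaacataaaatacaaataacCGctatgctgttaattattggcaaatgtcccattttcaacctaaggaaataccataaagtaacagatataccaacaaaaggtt
CD24: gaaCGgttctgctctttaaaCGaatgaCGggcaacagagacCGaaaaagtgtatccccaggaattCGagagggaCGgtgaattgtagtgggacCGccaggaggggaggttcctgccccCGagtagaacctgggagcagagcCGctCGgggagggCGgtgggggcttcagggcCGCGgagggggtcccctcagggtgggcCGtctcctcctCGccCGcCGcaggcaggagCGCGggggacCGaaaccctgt

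The 250 bases before the AFP start held 1 CG dinucleotide, and those before the CD24 start held 20, against a median of 11 over 35116 promoters. A TATAAA box was found on either strand in 10.7% of these promoters. For AFP it began 29 bases before the start, in the part not printed above. It was not found in the 250 bases of CD24. The AFP start used here is base 73436221, inside the gene span given below. A match is a description of the letters and was not tested as a binding site.

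The libraries held 68704509 to 85317970 counts each. Multiples of 4 made up 32.5% to 34.4% of count values between 1 and 40, so the counts were treated as estimated counts, and a value of 4 or 8 may stand for very few fragments. PTBP1 itself had 21.2, 16.4 and 27.4 FPKM in shControl and 17.3, 16.9 and 18.0 FPKM in shPTBP1, so the groups overlap and the directions below are between libraries as labelled. For PTBP1 the log2 fold change was -0.29 (SE 0.18, adjusted p = 0.953, edgeR). PTBP2, a paralog whose mRNA PTBP1 represses, had 2.01, 1.88 and 0.610 FPKM in shControl and 3.80, 4.06 and 3.21 FPKM in shPTBP1, without overlap (log2 fold change 1.32, unadjusted p = 0.0152, adjusted p = 0.718, edgeR). Hemoglobin HBB had 306 to 519 FPKM in the libraries numbered 1 and 2 and 0.360 FPKM in both libraries numbered 3. In HBB the libraries numbered 1 and 2 thus differ from those numbered 3, and the cause was not tested. The log2 fold changes of the 6 markers tested are also given with the libraries numbered 1 and 2 alone. These are the libraries with high HBB.

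The liver labels were set beside defining markers of hepatocytes. Of 18 secreted and metabolic hepatocyte genes, 1 reached a mean of 1 FPKM in either group, CPS1, the first enzyme of the urea cycle, at 268 ± 19.3 FPKM in shControl and 234 ± 10.4 FPKM in shPTBP1 (SD, n = 3 each). ALB (albumin), APOB, APOC3, TTR, FGA and FGB had a count of 0 in all 6 libraries. HNF4A, the central transcription factor of hepatocytes, had counts of 0 to 16. Of the 4 hepatocyte genes tested, 0 passed the adjusted threshold (edgeR). The defining hepatocyte markers other than CPS1 were thus absent or near 0 in both groups. Of 20 genes used by every cell, 0 had a count of 0 in any library (lowest count 1125). These genes are abundant, so they say nothing of zeros at other genes. Why the hepatocyte markers had counts of 0 was not tested.

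**Figure D1:**
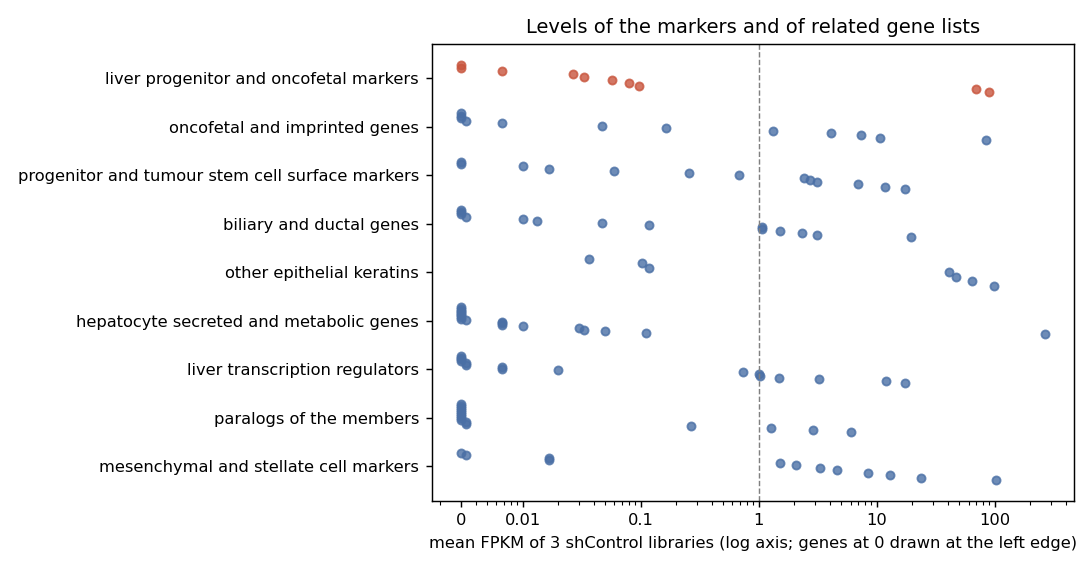
Mean FPKM of the 3 shControl libraries (log axis, genes at 0 drawn at the left edge) for the 10 markers (red) and for the genes of 8 related lists (blue), 1 point per gene, with a dashed line at 1 FPKM. KRT7 and CD24 lie at 90.3 and 69.3 FPKM, and the other 8 markers lie at or below 0.0967 FPKM.

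KRT7 encodes a type II keratin, which pairs with a type I keratin to form filaments. The gene spans 52232520 to 52252186 on chromosome 12 (build hg38, as are all gene positions given), and its levels were 104.4, 86.5 and 80.1 FPKM in shControl 1, 2 and 3 and 95.6, 108.6 and 115.8 FPKM in shPTBP1 1, 2 and 3. The groups overlap, since shControl 1 lies above shPTBP1 1. The means were 90.3 ± 12.6 and 107 ± 10.2 FPKM (SD, n = 3 each). Tested on counts, KRT7 had a log2 fold change of 0.27 (SE 0.14, adjusted p = 0.948, edgeR). Between libraries of the same number the log2 ratio was -0.12, 0.34 and 0.60, so the direction was not the same throughout. With the libraries numbered 1 and 2 alone the log2 fold change of KRT7 was 0.10. KRT7-AS, an antisense gene that overlaps KRT7, had counts of 545 to 835, against 26251 to 40520 for KRT7.

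CD24 encodes a small glycosylated protein anchored in the cell membrane, and lies on chromosome 6 from 106969831 to 106975465. It had 75.1, 56.4 and 76.3 FPKM in shControl 1, 2 and 3 and 121.2, 84.0 and 127.8 FPKM in shPTBP1 1, 2 and 3. Every shPTBP1 library lay above every shControl library, with the lowest shPTBP1 value (library 2) 84.0 and the highest shControl value (library 3) 76.3 FPKM. The log2 fold change was 0.71 (SE 0.20), a 1.64-fold higher level, with an unadjusted p = 0.00856 and an adjusted p = 0.631 by edgeR, so CD24 did not pass the threshold of 0.05.

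Of the 6 markers tested, the groups overlapped in all but CD24. CD24 had every shPTBP1 library above every shControl library, as did 6.49% of all genes tested. It was also the only marker at an unadjusted p under 0.05, where 3.58% of all genes tested were higher and 2.11% lower in shPTBP1. The log2 ratio of CD24 between libraries of the same number was 0.69, 0.59 and 0.81. With the libraries numbered 1 and 2 alone its log2 fold change was 0.65 (unadjusted p = 0.0418, adjusted p = 0.264, edgeR), in a fit where 10.3% of all genes were higher at an unadjusted p under 0.05.

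CD24 is also carried by some white blood cells. The summed level of 14 white cell markers was 15.0 to 26.1 FPKM in the libraries numbered 1 and 2 and 0.360 and 0.690 FPKM in shControl 3 and shPTBP1 3, and that of 10 red cell markers 595 to 991 against 1.09 and 0.880 FPKM. These markers varied so widely within each group that no difference between the groups was read from them. CD24 had 76.3 FPKM in shControl 3 and 127.8 FPKM in shPTBP1 3. Whether blood cells contributed to its level in any library was not tested. Processed copies of CD24 took 0.218% to 0.325% of the counts of CD24 and its 3 copies in the table, and how reads shared with such copies were assigned is not given in the sources used here.

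**Figure D2:**
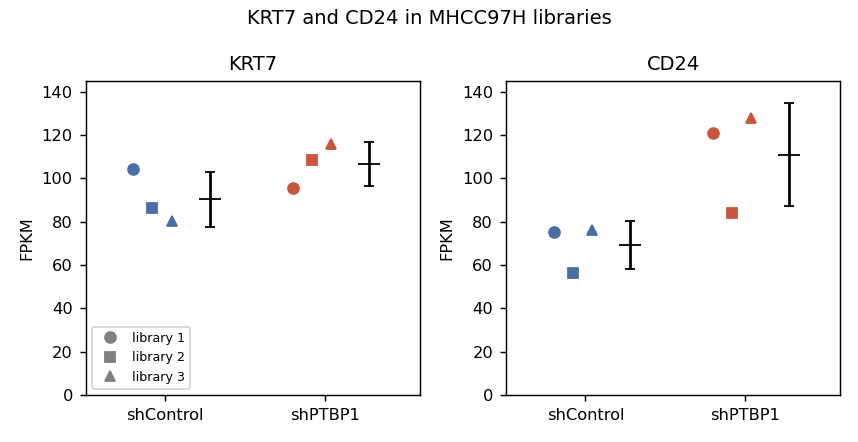
FPKM of KRT7 (left) and CD24 (right) in the 3 shControl and 3 shPTBP1 libraries, with 1 point per library (the marker gives its number) and mean ± SD (n = 3) beside them. KRT7 overlaps between the groups, while CD24 reaches at most 76.3 FPKM in shControl and at least 84.0 FPKM in shPTBP1.

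The order of the 2 abundant markers differed between the groups. In shControl KRT7 lay above CD24 in all 3 libraries and their ranges did not overlap, while in shPTBP1 mean CD24 (111 ± 23.6 FPKM) lay above mean KRT7 and the ranges overlapped. The ratio of CD24 to KRT7 was 0.719, 0.652 and 0.952 in shControl and 1.27, 0.773 and 1.10 in shPTBP1. The ratio in shPTBP1 2 lies within the shControl range.

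KRT19, the type I keratin of bile ducts, lies on chromosome 17 from 41523617 to 41528308. It had a count of 4 in shPTBP1 2 and of 0 in the other 5 libraries, so the 2 ductal keratins stood at opposite ends. Among 7 other epithelial keratins, KRT8, KRT18, KRT17 and KRT80 reached at least 1 FPKM. KRT18, a type I keratin, had 98.8 ± 7.84 FPKM in shControl and 104 ± 9.18 FPKM in shPTBP1 (SD, n = 3 each). KRT8, its type II partner in hepatocytes, had means of 41.0 ± 2.93 and 50.1 ± 2.75 FPKM, or 0.32 on the log2 scale (unadjusted p = 0.0171, adjusted p = 0.726, edgeR). KRT17, a keratin of basal cells and skin appendages, had 63.7 ± 6.24 and 73.0 ± 12.2 FPKM (SD, n = 3 each) and a log2 fold change of 0.23 (adjusted p = 0.953, edgeR), and 0 of the 6 keratins tested passed the adjusted threshold.

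SOX9 (chromosome 17 from 72121020 to 72126420) had counts of 26, 22 and 13 in shControl and 41, 84 and 11 in shPTBP1. The shPTBP1 libraries held both the highest and the lowest value. In CPM (counts scaled to a common library size, here with the trimmed mean of M-values, TMM) this was 0.273 ± 0.0995 and 0.584 ± 0.468 (SD, n = 3 each). For SOX9 the log2 fold change was 1.10 (SE 0.74, adjusted p = 0.953, edgeR), and 0.30 without shPTBP1 2. With the libraries numbered 1 and 2 alone it was 1.33 (adjusted p = 0.321, edgeR).

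Other genes of the biliary and ductal lineage differed widely in level. Of 14 listed, 6 reached a mean of 1 FPKM in either group, with the anion exchanger SLC4A2 highest at 19.5 ± 4.30 FPKM in shControl and 18.2 ± 2.42 FPKM in shPTBP1 (SD, n = 3 each), and 3 had a count of 0 in all libraries, PKHD1 and TFF3 among them. JAG1, a Notch ligand of bile duct formation, had 1.24, 1.14 and 0.840 FPKM in shControl and 0.740, 0.720 and 0.730 FPKM in shPTBP1, with a log2 fold change of -0.52 (unadjusted p = 0.0296, adjusted p = 0.822, edgeR). The Notch target HES1 had a log2 fold change of 0.43 (adjusted p = 0.953, edgeR), and the mucin MUC1 of -0.11 (adjusted p = 0.987, edgeR). Of the 8 tested, 0 passed the adjusted threshold, and 4 values were positive and 4 negative.

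The oncofetal markers were at or near 0. For AFP (chromosome 4 from 73431138 to 73455743), the count of 0 allows up to 3 counts, or 0.0352 to 0.0437 CPM of the library total. If each fragment adds 4, the limit is 0.141 to 0.175 CPM, and both cover counting error only. DLK1 (chromosome 14 from 100725705 to 100738224) had a count of 8 in shControl 3 and of 0 in the other 5 libraries. GPC3 (chromosome X from 133535745 to 133985895) had counts of 0, 0 and 22 in shControl and 8, 0 and 23 in shPTBP1. The 2 highest GPC3 values were in the number 3 libraries of both groups. AL009174, which lies within GPC3 on the opposite strand, had counts of 602 to 890. AFP, DLK1, GPC3 and KRT19 did not pass the filter on low counts and were not tested.

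SALL4 (chromosome 20 from 51782331 to 51802521) had counts of 67, 47 and 35 in shControl and 73, 59 and 85 in shPTBP1. In TMM-normalized CPM these were 0.673 ± 0.267 and 0.953 ± 0.212 (SD, n = 3 each). The groups overlap through shControl 1. For SALL4 the log2 fold change was 0.50 (SE 0.40, adjusted p = 0.960, edgeR). Without shControl 1 it was 0.87, without shControl 3 it was 0.33, without shPTBP1 3 it was 0.32, and with the libraries numbered 1 and 2 alone it was 0.15.

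Other oncofetal genes were present where AFP, GPC3 and DLK1 were not. Of 12 listed, 5 reached a mean of 1 FPKM in either group. H19, an imprinted long noncoding RNA of the fetal liver, had 50.7, 72.5 and 132 FPKM in shControl and 121, 115 and 184 FPKM in shPTBP1, with a log2 fold change of 0.75 (SE 0.35, adjusted p = 0.897, edgeR). Its shControl 3 value lies above shPTBP1 1 and 2. The fetal mRNA-binding proteins IGF2BP1 and IGF2BP2 had 4.10 ± 0.653 and 1.32 ± 0.555 FPKM in shControl and 4.67 ± 0.359 and 1.59 ± 0.289 FPKM in shPTBP1 (SD, n = 3 each). RTL1, an imprinted neighbor of DLK1, had a count of 0 in all libraries. Of the 8 tested, 0 passed the adjusted threshold and 0 had an unadjusted p under 0.05 (edgeR).

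PROM1 (chromosome 4 from 15963076 to 16083701) encodes a membrane protein of cell protrusions. It had counts of 15, 40 and 102 in shControl and 27, 37 and 25 in shPTBP1. The value of shControl 3 stands above all others, and the shPTBP1 counts lie between those of shControl 1 and 2. In TMM-normalized CPM, shPTBP1 2 (0.476) lies just above shControl 2 (0.462). The log2 fold change was -0.86 (SE 0.70, adjusted p = 0.960, edgeR). Without shControl 3 it was 0.18 (adjusted p = 0.916, edgeR), so the sign rests on that library, and with the libraries numbered 1 and 2 alone it was 0.25. FGFBP2, which overlaps PROM1 on the same strand, had counts of 0 to 18.

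THY1 (chromosome 11 from 119417378 to 119424985) encodes a membrane-anchored glycoprotein of mesenchymal and stem-like cells. It had counts of 20, 18 and 4 in shControl and 20, 4 and 23 in shPTBP1. In each group 1 library was low, shControl 3 and shPTBP1 2. For THY1 the log2 fold change was 0.16 (SE 0.89, adjusted p = 0.995, edgeR), and -0.71 with the libraries numbered 1 and 2 alone. USP2-AS1, an antisense gene that overlaps THY1, had counts of 98 to 195, and whether the authors counted by strand is not given in the sources used here.

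**Figure D3:**
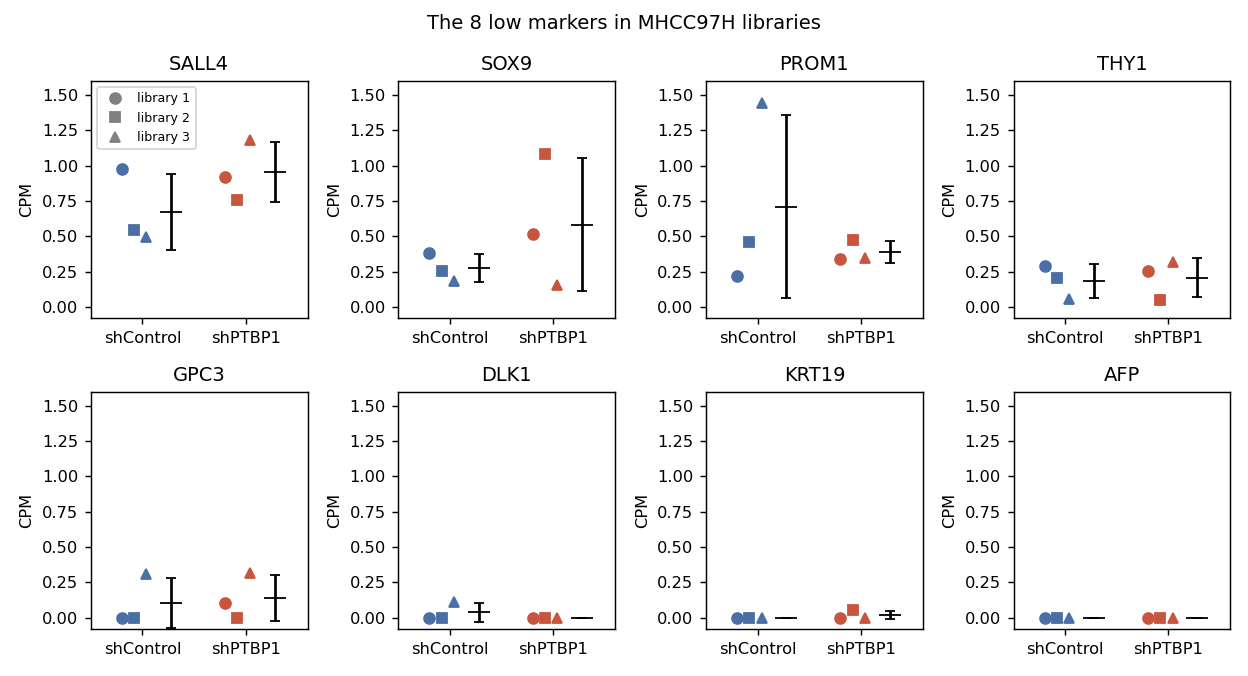
TMM-normalized CPM of the 8 markers other than KRT7 and CD24, on 1 common axis, with 1 point per library (the marker gives its number) and mean ± SD (n = 3) beside them. AFP is at 0 throughout, and the highest values are 1.44 CPM of PROM1 in shControl 3, 1.18 CPM of SALL4 in shPTBP1 3 and 1.08 CPM of SOX9 in shPTBP1 2.

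Among the 8 low markers, no order held between neighbors. By mean FPKM the order was SALL4, PROM1, SOX9, GPC3, THY1, DLK1 and then AFP and KRT19 in shControl, and SALL4, SOX9, PROM1, GPC3, THY1, KRT19 and then AFP and DLK1 in shPTBP1. Every neighboring pair among these 8 overlapped over the 3 libraries of each group, whereas the lowest value of KRT7 or CD24, 56.4 FPKM, stood far above the highest of the 8, 0.230 FPKM.

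Across the set, 6 of the 10 markers passed the filter on low counts, and 0 of these passed an adjusted p of 0.05 in edgeR, against 0.0309% of the 19393 genes tested. The 5 positive log2 fold changes ran from 0.16 to 1.10, and the 1 negative value, of PROM1, was -0.86. Their median was 0.38, against -0.01 over all genes tested. Of the values behind this median, those of SALL4, SOX9, PROM1 and THY1 come from counts of at most 102. The signs of PROM1 and THY1 changed with the libraries used. DESeq2 also called 0 of the markers it tested, with CD24 at an adjusted p of 0.141.

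**Figure D4:**
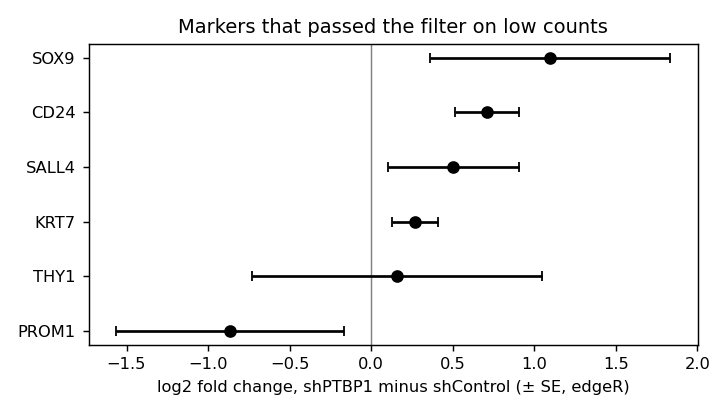
Difference between shPTBP1 and shControl, as edgeR's log2 fold change, for the 6 markers that passed the filter on low counts; bars span 1 standard error on each side (n = 3 libraries a group). CD24 at 0.71 and KRT7 at 0.27 have the shortest bars, and SOX9, PROM1 and THY1, at low counts, the longest.

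Related surface proteins were measured beside PROM1, CD24 and THY1. Of 13 other markers of progenitor and tumor stem cells, 6 reached a mean of 1 FPKM in either group, among them CD44, ALCAM, ITGA6, CD47 and ABCG2. EPCAM, a surface marker of hepatic progenitors, had a count of 0 in all libraries. ITGA6 (integrin alpha-6, a laminin receptor subunit) had 2.64, 2.60 and 2.90 FPKM in shControl and 4.14, 4.46 and 4.04 FPKM in shPTBP1, with no overlap. Its log2 fold change was 0.66 (SE 0.12, unadjusted p = 0.000733, adjusted p = 0.257, edgeR). DESeq2 called ITGA6. ALCAM had a log2 fold change of 0.60 (unadjusted p = 0.0488, adjusted p = 0.876, edgeR). Of the 10 tested, 0 passed the adjusted threshold in edgeR, 8 had positive values, and the median was 0.30. This median was 0.11 without shControl 2 and 0.58 without shControl 3.

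Paralogs of the markers gave a similar picture of few members present. Of 15 listed, GPC1, GPC5 and DLK2 reached a mean of 1 FPKM, and ALB, AFM, GC, GPC6, SALL1, SALL3 and SOX10 had a count of 0 in all libraries. GPC1, a glypican related to GPC3, had 2.97, 2.12 and 3.54 FPKM in shControl and 5.21, 4.41 and 5.16 FPKM in shPTBP1, with no overlap. The log2 fold change of GPC1 was 0.80 (SE 0.20, unadjusted p = 0.00497, adjusted p = 0.554, edgeR). DESeq2 called GPC1. GPC5 had a log2 fold change of 0.16 and DLK2 of -0.25, both with an adjusted p over 0.9 in edgeR.

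Regulators of the fetal and adult liver program were partly present. Of 16 listed, 6 reached a mean of 1 FPKM, CEBPB, FOXA1, GATA6, HHEX, TBX3 and ZHX2, and FOXA2, FOXA3 and GATA4 had a count of 0 in all libraries. TBX3, a factor of hepatoblast growth, had 12.1 ± 0.692 FPKM in shControl and 14.5 ± 1.14 FPKM in shPTBP1, which is 0.29 as a log2 fold change (unadjusted p = 0.0287, adjusted p = 0.822, edgeR). ZHX2, a repressor of AFP after birth, had 1.48 ± 0.0400 and 1.85 ± 0.170 FPKM (log2 fold change 0.34, adjusted p = 0.895, edgeR). For FOXA1, a pioneer factor of the liver, the log2 fold change was 0.33 (adjusted p = 0.953, edgeR). Of the 8 tested, 0 passed the adjusted threshold.

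Mesenchymal and stellate cell markers were set beside THY1. Of 12 listed, 8 reached a mean of 1 FPKM, among them VIM (vimentin) at 104 ± 8.62 FPKM in shControl and 117 ± 0.551 FPKM in shPTBP1, while COL1A2 had a count of 0 in all libraries. COL3A1, a fibrillar collagen, had 20.1, 25.6 and 25.5 FPKM in shControl and 43.2, 41.3 and 32.4 FPKM in shPTBP1, without overlap. For COL3A1 the log2 fold change was 0.74 (SE 0.15, unadjusted p = 0.00134, adjusted p = 0.336, edgeR). COL3A1 was among the 168 genes called by DESeq2, and 6.49% of all genes tested had the same lack of overlap in this direction. NT5E (CD73) had a log2 fold change of 0.77 (adjusted p = 0.559, edgeR), and 0 of the 9 tested passed the adjusted threshold in edgeR.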

How the data were processed

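RNA of 6 MHCC97H libraries was analysed from 1 table of 58825 genes, in which the authors deposited FPKM and whole-number estimated counts per library. Their processing notes list cutadapt 1.9, FastQC, HISAT2 2.2.1, StringTie and hg38, without settings. The counts sum to 68704509 to 85317970 per library. They were rounded and tested over the whole table with edgeR 4.0.16 (R 4.3.3), using the quasi-likelihood F test, TMM scaling and its filter on low counts and no covariate. Adjusted p-values are Benjamini-Hochberg values, with a threshold of 0.05. The SE is the absolute log2 fold change divided by the square root of F. The steps were tested on simulated data. Where a symbol had several identifiers, the lowest was used.

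The members and the 10 other lists were chosen with earlier results of these data known. From each list up to 3 genes are named, taken by smallest p where the higher group mean reached 1 FPKM, plus PTBP1, PTBP2 and HBB as checks, further genes being named after their values were seen. Some genes of the lists enter the counts but are not reported here by name. Exons of GENCODE release 29 were used to end the AFP sequence.

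The fits were repeated with DESeq2 1.42.0, with edgeR after RLE scaling or with no filter on low counts, with limma 3.58.1 on log2(FPKM + 1) or log2(FPKM + 0.1), a replicate block, libraries 1 and 2 only, each library left out and, added after seeing the data, counts divided by 4.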

Additional observations from a re-analysis of the deposited data

How the results depend on the processing

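Under all 15 alternatives 0 of the markers tested passed the adjusted threshold. Not every fit tested every marker, and AFP, at a count of 0, could not be tested in any. CD24 kept a positive log2 fold change, 0.58 to 0.88, with an unadjusted p under 0.05 in 15 of 15 and an adjusted p of 0.141 to 1.00. Of all genes tested, 3.79% to 16.6% had an unadjusted p under 0.05 without each library in turn, and 17.7% with libraries 1 and 2 only. KRT7 (0.10 to 0.39) and, where tested, SALL4 (0.05 to 0.87) and SOX9 (0.08 to 1.55) also stayed positive. The lowest values of SALL4 and SOX9 are from limma on log2(FPKM + 1) without its filter. There the added 1 shrinks differences of genes far below 1 FPKM, so these values are not on the scale of edgeR. PROM1 reversed to 0.25 with libraries 1 and 2 only, and without each library in turn ran from -1.29 to 0.18. THY1 reversed to -0.71 with libraries 1 and 2 only, and without each library in turn ran from -0.29 to 0.63. The cause was not tested.

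The count of all genes called, 6, became 168 with DESeq2, 1 with limma without its filter and 63 with libraries 1 and 2 only, and 2 to 136 without each library in turn (136 without shControl 3). The number is not a pairing in the labels, and deviations from the group means of same-numbered libraries correlated at -0.0701, 0.13 and 0.0172 across 14233 genes, so it was not taken as a pair. With it as a replicate block 0 genes were called by edgeR (987 at an unadjusted p under 0.05), and CD24 had a log2 fold change of 0.70 (adjusted p = 0.594). Markers at an unadjusted p under 0.05 numbered 1 to 2 without each library in turn, KRT7 joining without shControl 1 and SOX9 without shPTBP1 3, where 4.35% and 5.05% of all genes tested had such a p. Markers without overlap, 1 over all libraries, were 2 with libraries 1 and 2 only and 1 to 3 without each library in turn, where 52.2% and 18.4% to 37.5% of all genes did not overlap in either direction. With DESeq2, 1 gene each of the surface marker, paralog and mesenchymal lists was called (ITGA6, GPC1 and COL3A1), and 0 in the other lists. The median of a list moved by more than the spread between libraries in 21 of 150 recomputations. Ranges were widest for paralogs (0.02 to 1.48) and red cell markers (-0.94 to 0.43). The ends for paralogs are from limma without its filter and from DESeq2, fits without edgeR's filter on low counts. Without each library in turn the paralog median ran from 0.35 to 0.59. The red cell median never moved by more than the spread between libraries. That spread is so wide for these markers that staying within it says nothing of stability. Counts of 0 to 102 limit what can be said of the 8 low markers.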
